A study of Mus musculus with 6 samples.

Results

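The GADD45, BTG/TOB and cyclin G genes encode small proteins that slow or stop the cell cycle. The 10 genes Gadd45a, Gadd45b, Gadd45g, Btg1, Btg2, Btg3, Tob1, Tob2, Ccng1 and Ccng2 were taken by name, and each symbol was matched to 1 of the 54532 Ensembl gene IDs in the deposited table. RNA sequencing was done on heart ventricles of mouse embryos at E12.5. There were 3 LSD1-CKO libraries, from a conditional knockout of LSD1 whose genotype label is LSD1-KO, and 3 control libraries (label CTL). LSD1 is the histone demethylase encoded by Kdm1a. The labels name no Cre driver, no Lsd1 allele and no litter, and they do not say whether embryos were pooled or what the controls carry, so the p-values speak to the spread among the 6 libraries only, part of which may be technical. All 10 genes had a mean of at least 0.5 FPKM (fragments scaled to exon length and library size) and entered the test, beside 14149 genes tested in all.

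GADD45 proteins are induced by stress and differentiation signals. They bind the replication clamp PCNA, hold back the mitotic kinase CDK1 and its cyclin B, and activate the kinase MAP3K4 upstream of p38 and JNK. BTG and TOB proteins share an amino-terminal domain that recruits the CCR4-NOT deadenylase, which shortens the poly(A) tails of messenger RNAs. Cyclin G1 is a p53 target that binds phosphatase PP2A and the p53 ubiquitin ligase MDM2, and cyclin G2 is an unstable protein linked to cell cycle exit and to FOXO factors. At this stage the ventricular wall still grows by division of its cardiomyocytes.

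Gadd45g was the only one of the 10 genes that passed the test, and it was lower in LSD1-CKO. Its promoter is shown beside those of its relatives Gadd45a and Gadd45b, which did not pass, so that the family can be compared base by base. The promoter of Btg3, the gene with the largest fitted difference in the opposite direction, is shown as well. Each line gives up to 250 bases before a RefSeq transcription start on GRCm38.p6, cut where an annotated GENCODE exon begins, 5′ to 3′ on the gene's strand. Capitals mark every match to the searched motifs that lies within the bases shown.
Gadd45g (chr13:51846425-51846674, plus strand): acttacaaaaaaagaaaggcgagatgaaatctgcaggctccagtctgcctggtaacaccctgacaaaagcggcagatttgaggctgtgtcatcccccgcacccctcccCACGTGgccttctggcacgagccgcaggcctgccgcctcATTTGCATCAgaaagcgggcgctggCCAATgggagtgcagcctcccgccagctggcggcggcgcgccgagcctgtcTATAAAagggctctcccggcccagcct
Gadd45a (chr6:67037458-67037657, minus strand): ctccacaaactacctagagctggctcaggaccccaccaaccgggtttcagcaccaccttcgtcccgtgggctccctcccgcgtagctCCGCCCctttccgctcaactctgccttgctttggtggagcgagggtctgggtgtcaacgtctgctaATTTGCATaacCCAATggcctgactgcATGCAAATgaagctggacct
Gadd45b (chr10:80929841-80930072, plus strand): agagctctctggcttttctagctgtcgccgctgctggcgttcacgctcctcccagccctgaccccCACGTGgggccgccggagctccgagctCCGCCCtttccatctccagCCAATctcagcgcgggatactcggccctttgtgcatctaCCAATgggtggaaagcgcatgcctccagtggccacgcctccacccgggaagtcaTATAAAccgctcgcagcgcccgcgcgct
Btg3 (chr16:78376811-78377060, minus strand): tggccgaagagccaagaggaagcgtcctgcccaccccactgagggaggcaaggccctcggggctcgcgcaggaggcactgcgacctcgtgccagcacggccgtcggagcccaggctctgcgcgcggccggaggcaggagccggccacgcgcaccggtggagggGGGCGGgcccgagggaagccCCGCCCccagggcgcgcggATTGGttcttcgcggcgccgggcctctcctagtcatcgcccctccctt

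The motifs were searched on both strands in the 250 bases before each of 32851 RefSeq starts, which include 11 starts of the 10 genes (Btg3 has 2). The Gadd45g window held a TATA box (TATAAA) 27 bases before the start, a CCAAT box (CCAAT) 78 bases before it and an E-box (CACGTG) 142 bases before it. It also held an octamer (ATTTGCAT) 103 bases before the start, which overlaps a C/EBP-ATF composite (TTGCATCA) that begins 101 bases before it. The octamer lay in 1.6% of all windows and the C/EBP-ATF composite in 0.791%, and among the 10 genes the composite was found in Gadd45g alone. Gadd45a held 2 octamers around a CCAAT box, and Gadd45b held 2 CCAAT boxes, an E-box and a TATA box. The shown Btg3 window had no TATA box, held a CCAAT box and 2 GC boxes (GGGCGG), and had a GC content of 75.2%, against a median of 52.4% over all windows.

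The motifs found among the other genes also differed from one to the next. A CRE (TGACGTCA) was present in Btg2 and in 1.55% of all windows, and a forkhead motif (TGTTTAC) in Btg1 and in 3.17% of windows. A p53 half-site, named for the factor that binds it, matched in Gadd45a and Ccng1, both of which are known p53 targets, and in 7.13% of windows. The Gadd45a match, 40 bases before the start, lies in the bases cut from its line above. TATA boxes were found in 4 of the 11 windows (12.4% of all windows), CCAAT boxes in 9 (33.8%), GC boxes in 8 (32.7%) and E-boxes in 2 (6.02%). The windows of Ccng2 and Tob2 lie wholly under annotated exons and are not printed. A match is a description of the sequence, and binding was not measured here.

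The libraries were of similar depth. Each held 17898946 to 20076023 reads in genes, as recovered from the steps between FPKM values, so that 3 reads in a gene of 1 kb, the floor used here, stood at 0.155 to 0.169 FPKM. Floors and read numbers cover counting error only. Kdm1a stood at 10.7, 11.8 and 10.96 FPKM in the LSD1-CKO libraries and at 29.99, 29.7 and 22.8 FPKM in the controls. The ventricular markers were present, with Myl2 at 3204 to 3375 FPKM in LSD1-CKO and 3096 to 3567 FPKM in control ventricles. Knockout replicate 3 had 12.1 FPKM of Xist and 0 FPKM of the Y-linked gene Ddx3y, knockout replicate 1 had 1.11 and 14.3 FPKM, and the other 4 libraries had at most 0.0125 FPKM of Xist. Ddx3y stood at 14.3 FPKM in knockout replicate 2 and at 13.0 to 13.8 FPKM in the controls. Sex-linked RNA was thus not balanced between the groups. Knockout replicate 1 held RNA of both kinds, and whether it was pooled is not known. Control replicate 3 stood apart on the second principal component (-20.7, against -5.68 to 11 in the others). The summed FPKM of 9 macrophage and immune markers was 169 to 197 in LSD1-CKO and 143 to 168 in control libraries, and the summed FPKM of 8 neural crest and Schwann precursor markers was 43.4 to 48.9 and 26.7 to 44.6. Only the macrophage and immune sums lay apart. The sums of neural crest, erythroid, mesenchymal, endothelial, epicardial and ventricular markers overlapped between the groups. Erythroid markers ranged from 7920 to 16538 FPKM in LSD1-CKO and from 8053 to 18024 FPKM in control libraries. Mesenchymal markers ranged from 321 to 413 and from 336 to 531 FPKM. Of 10 endothelial markers only Cldn5 was called, lower in LSD1-CKO, while the median log2 change of that list was 0.20. Of 7 epicardial markers only Krt8 was called, higher in LSD1-CKO, with a list median of 0.05. In bulk tissue, fewer cells of a type and less RNA per cell cannot be told apart, and the part of these cells in the results below was not tested.

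The 10 genes covered a wide range of levels per length, and 1 dominated. Ccng1 averaged 114 ± 9.4 FPKM in LSD1-CKO and 110 ± 9.29 FPKM in control ventricles (SD, n = 3 each), 4.6 and 4.4 times the next gene, Btg1. In the LSD1-CKO libraries the order below Btg1 was Btg3, Gadd45b, Gadd45g, Btg2, Tob1, Ccng2, Tob2 and Gadd45a. Only the libraries of the neighbours Btg3 and Gadd45b, and of Btg2 and Tob1, overlapped there. In the control libraries the order below Btg1 was Gadd45g, Gadd45b, Btg3, Btg2, Tob1, Ccng2, Tob2 and Gadd45a. There the ranges overlapped between Btg1 and Gadd45g, Gadd45g and Gadd45b, Btg3 and Btg2, and Btg2 and Tob1. Gadd45g thus stood below Gadd45b in each LSD1-CKO library and above it in each control library, which the comparison of ratios below takes up. Read numbers ran from 49 to 85 per library for Gadd45a and from 6350 to 8136 for Ccng1, so that Gadd45a was by far the least precisely measured.

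**Figure D1:**
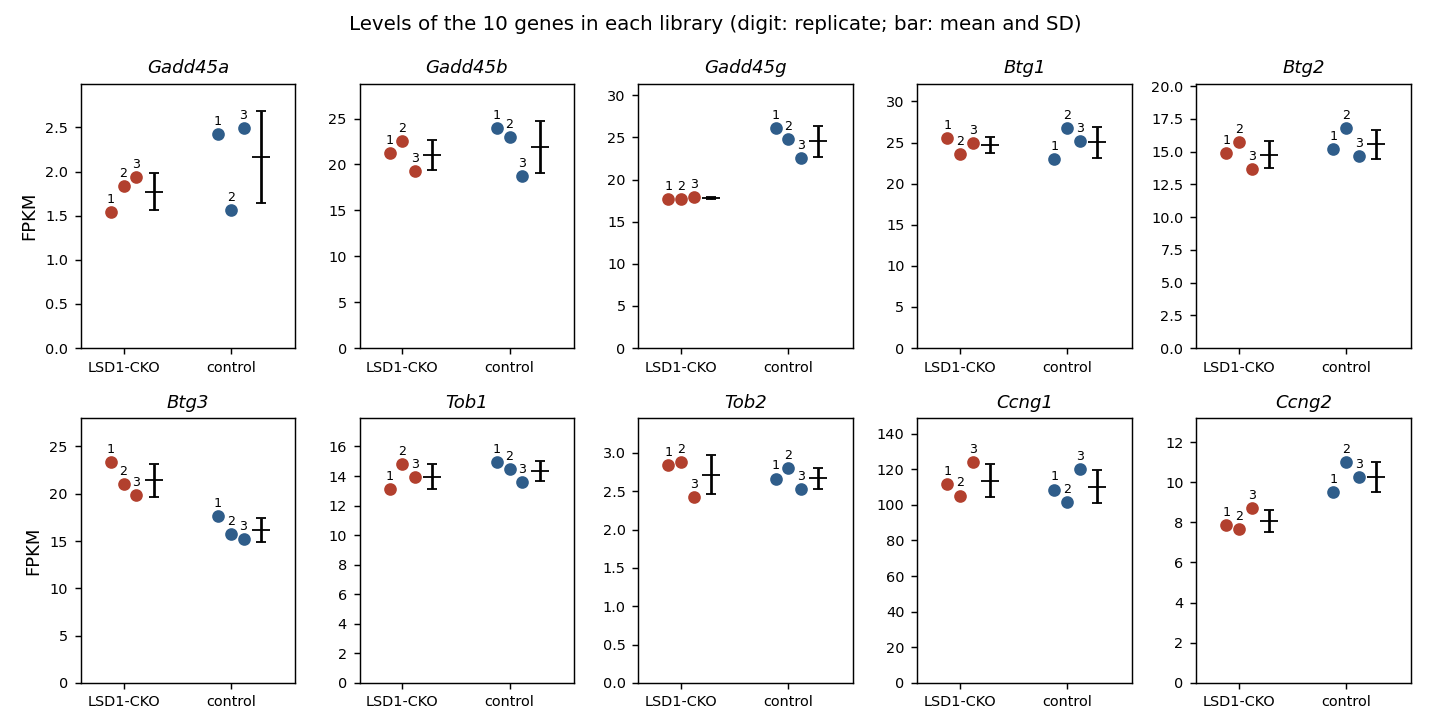
FPKM of each gene in the 3 LSD1-CKO libraries (left, red) and the 3 control libraries (right, blue) on linear axes from 0, with the replicate number at each point and the mean and SD as a bar. The LSD1-CKO points of Gadd45g and Ccng2 lie below all control points and those of Btg3 above them, while the points of the other 7 genes overlap.

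Across the 10 genes, 1 was called lower and 0 higher by limma at an adjusted p under 0.05, where 0.466% of the genes tested were called lower, 1.91% higher and 2.37% either way. Before adjustment 3 of the 10 had a p under 0.05, as did 2274 of the 14149 genes tested. The LSD1-CKO and control libraries did not overlap for 3 of the 10, which is near the 21.4% of genes tested (10.4% lower and 11% higher in LSD1-CKO) and so is no result about these genes. Their median log2 change was -0.04, beside -0.01 over all genes tested.

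Gadd45g encodes the GADD45 gamma protein, known for a part in neuronal and gonadal development and in p38 activation. It was read at 17.7, 17.7 and 17.9 FPKM in the LSD1-CKO libraries, against 26.1, 24.8 and 22.6 FPKM in the control libraries. The knockout values lay below the lowest control. They were almost identical to each other, at 376, 402 and 376 reads, but 3 libraries are too few for that closeness to measure precision. The mean was 17.8 ± 0.149 FPKM in LSD1-CKO and 24.5 ± 1.81 FPKM in control ventricles (SD, n = 3 each), a ratio of 0.725. On the log2(FPKM + 1) scale, which understates the change of low genes, the difference was -0.44 (SE 0.07, 95% interval -0.60 to -0.28, limma adjusted p = 0.0220). On GRCm38 (mm10) Gadd45g spans chr13:51846678-51848468, plus strand, and none of its exons lies under another gene. Between 376 and 566 reads per library stood behind these values. On recovered reads limma-voom gave a log2 change of -0.46 with a larger SE, 0.098 (limma-voom adjusted p = 0.0228).

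The direction of Gadd45g held in each of 18 alternative settings, with log2 changes of -0.50 to -0.37, but its call rested on the full set of libraries. The limma adjusted p was 0.0810, 0.0948 and 0.0842 without LSD1-CKO replicate 1, 2 or 3, and 0.0761, 0.0807 and 0.0153 without control replicate 1, 2 or 3. It was also above the threshold after rescaling to TPM (0.0747), with no filter on low values (0.0548) and with a sex score from Xist and Y-linked genes as covariate (0.103).

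Gadd45a and Gadd45b did not pass the test. Gadd45a, a p53 target that arrests cells after DNA damage, stood at 1.54, 1.84 and 1.94 FPKM in LSD1-CKO and at 2.43, 1.56 and 2.50 FPKM in control libraries. The second control lay among the knockout values. The log2 change was -0.18 (95% interval -0.49 to 0.14, limma adjusted p = 0.570). It was -0.32 without control replicate 2, -0.11 without control replicate 1 and -0.099 without control replicate 3, and -0.12 without LSD1-CKO replicate 1, with no call in any of these fits. In the annotation 19.1% of the exon bases of Gadd45a lie under E230016M11Rik on the opposite strand, itself at no more than 0.141 FPKM. Gadd45b, which responds to TGF-beta and NF-kB signals, stood at 21.3, 22.6 and 19.3 FPKM in LSD1-CKO and at 24.0, 23.0 and 18.7 FPKM in control libraries. Its groups overlapped, with the lowest value in control replicate 3 (log2 change -0.05, 95% interval -0.29 to 0.19, limma adjusted p = 0.860). The intervals leave room for a fall of FPKM + 1 to 0.710 of control for Gadd45a and to 0.817 for Gadd45b. At the low level of Gadd45a, the first value stands for a larger fall of the FPKM itself.

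As shares of the family sum, which move together by construction, Gadd45g and Gadd45b changed order between the groups, with no test of the shares. Gadd45g made up 43.7%, 42.0% and 45.8% of the summed GADD45 FPKM in the LSD1-CKO libraries, against 49.7%, 50.3% and 51.6% in the controls. Gadd45b made up 52.5%, 53.6% and 49.3% in LSD1-CKO and 45.7%, 46.6% and 42.7% in control libraries, and Gadd45a at most 5.7% in any library. The larger share therefore belonged to Gadd45b in each knockout library and to Gadd45g in each control library. The family sum was 40.6 ± 1.44 FPKM in LSD1-CKO and 48.6 ± 4.45 FPKM in control ventricles (SD, n = 3 each), a ratio of 0.836. After rescaling to TPM the ratio was 0.886. At the deposited scaling the libraries of the sum did not overlap, as was so for 21.4% of single genes tested, and the sum was not tested.

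A ratio of relatives within 1 library, taken here on FPKM + 1, depends little on how that library was scaled. The log2 ratio of Gadd45g over Gadd45b was -0.25, -0.34 and -0.10 in LSD1-CKO and 0.12, 0.11 and 0.26 in control libraries, a difference of -0.39. The groups did not overlap, and the two-sided exact permutation test gave p = 0.1, the smallest that 3 against 3 libraries allow, with 0.2 after adjustment over the 4 ratios examined. For Gadd45g over Gadd45a the difference was -0.26 and the groups overlapped (exact p = 0.2, adjusted 0.267), and it was -0.11 without control replicate 2 and -0.40 without control replicate 3. For Gadd45b over Gadd45a it was 0.13 (exact p = 0.7, adjusted 0.7), and without control replicate 3 its sign turned (-0.055). At this number of libraries no ratio could pass 0.05.

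**Figure D2:**
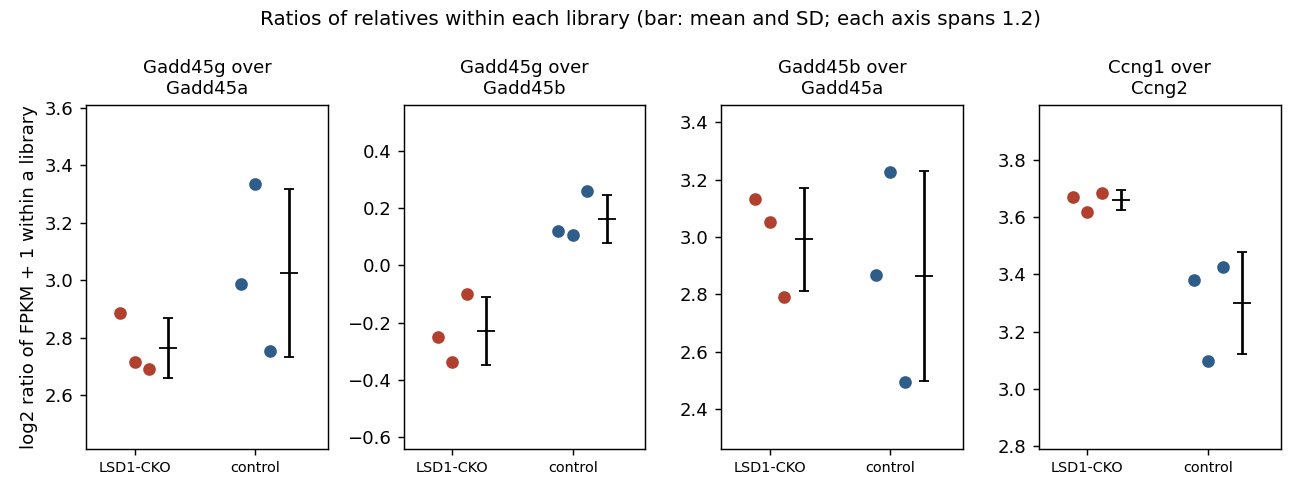
Log2 ratio of FPKM + 1 for 4 pairs of relatives in each LSD1-CKO library (left, red) and each control library (right, blue), with mean and SD as a bar; each vertical axis spans 1.2 log2 units. The groups lie apart for Gadd45g over Gadd45b (-0.34 to -0.10 in LSD1-CKO and 0.11 to 0.26 in control) and for Ccng1 over Ccng2 (3.62 to 3.69 and 3.10 to 3.43).

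Of the BTG and TOB genes, Btg3 had the largest difference, and it missed the threshold. Btg3, known in mice as a restraint on E2F1 and a suppressor of tumours, stood at 23.3, 21.1 and 19.9 FPKM in LSD1-CKO and at 17.7, 15.8 and 15.2 FPKM in control libraries. Each knockout library lay above each control library. The mean was 21.4 ± 1.74 FPKM in LSD1-CKO and 16.2 ± 1.28 FPKM in control ventricles (SD, n = 3 each). The ratio of these means was 1.32 (log2 change 0.38, SE 0.08, 95% interval 0.19 to 0.58, limma adjusted p = 0.0710). It passed after rescaling to TPM (adjusted p = 0.0364), by quantiles (0.0365), without haemoglobin and mitochondrial genes (0.0237) and with limma-voom on recovered reads (0.0259). It did not pass in any fit that left out a library (adjusted p = 0.0858 to 0.181), nor with the sex score as covariate (0.147).

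Reads of Btg3 can be shared with other genes. Exons of Cxadr on the opposite strand cover 17.3% of its exon bases, and the library kit does not mark strand. Cxadr itself stood at 9.4 ± 0.0932 FPKM in LSD1-CKO and 9.8 ± 0.529 FPKM in control ventricles (SD, n = 3 each) and did not pass (limma adjusted p = 0.735). The processed pseudogene Gm7334 is identical to a Btg3 transcript over 756 bases. It drew 30, 25 and 17 reads in LSD1-CKO and 20, 22 and 17 in control libraries, few beside the 1125 to 1691 reads of Btg3. Btg3 spans chr16:78332637-78377192, minus strand.

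The other BTG and TOB genes stayed within the spread of the libraries. Btg1, a lymphoid regulator often mutated in lymphoma, stood at 25.5, 23.6 and 24.9 FPKM in LSD1-CKO and at 23.0, 26.8 and 25.2 FPKM in control libraries. Btg2, a p53-inducible gene of neuronal precursors, stood at 14.9, 15.7 and 13.7 FPKM in LSD1-CKO and at 15.2, 16.8 and 14.6 FPKM in control libraries. Tob1, which binds SMAD proteins as well as the deadenylase, stood at 13.1, 14.8 and 13.9 FPKM in LSD1-CKO and at 14.9, 14.5 and 13.6 FPKM in control libraries. The knockout and control values of each of these 3 genes overlapped. Tob2, the least abundant of the family, stood at 2.85, 2.88 and 2.43 FPKM in LSD1-CKO and at 2.67, 2.81 and 2.53 FPKM in control libraries. The log2 changes of these 4 genes lay between -0.07 and 0.02 (limma adjusted p = 0.724 to 0.944). Their 95% intervals together ran from -0.25 to 0.21, so that shifts within that range cannot be told from none here. The sign of each turned in at least 1 alternative setting.

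The shares of Btg3 and Btg2 in the family sum, which move together by construction, lay apart in opposite directions, which was not tested. The FPKM of Btg2 itself overlapped between the groups (log2 change -0.07, limma adjusted p = 0.724). Btg3 made up 29.2%, 27.0% and 26.6% of the summed BTG/TOB FPKM in LSD1-CKO and 24.0%, 20.5% and 21.4% in control libraries. Btg2 made up 18.7%, 20.1% and 18.3% in LSD1-CKO and 20.7%, 21.9% and 20.6% in control libraries. For both genes the knockout and control shares did not overlap. Btg1 held the largest share in every library, between 30.2% and 35.4%. The family sum was 77.6 ± 2.47 FPKM in LSD1-CKO and 73.8 ± 2.75 FPKM in control ventricles (SD, n = 3 each), with overlapping libraries.

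Neither cyclin G gene passed the test. Ccng1 stood at 112, 105 and 124 FPKM in LSD1-CKO and at 109, 102 and 120 FPKM in control libraries, so that the groups overlapped throughout (log2 change 0.05, 95% interval -0.16 to 0.26, limma adjusted p = 0.853). In both groups replicate 3 was the highest and replicate 2 the lowest. Ccng2 stood at 7.87, 7.65 and 8.70 FPKM in LSD1-CKO and at 9.52, 10.99 and 10.3 FPKM in control libraries. The highest knockout value lay below the lowest control value, and the mean was 8.07 ± 0.555 FPKM in LSD1-CKO and 10.3 ± 0.733 FPKM in control ventricles (SD, n = 3 each), a ratio of 0.787. The difference missed the threshold (log2 change -0.31, SE 0.08, 95% interval -0.49 to -0.13, limma adjusted p = 0.103), and it did so in all 18 alternatives, with adjusted p from 0.0537 to 0.288. Between 776 and 1081 reads per library stood behind Ccng2.

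The log2 ratio of Ccng1 over Ccng2 was 3.67, 3.62 and 3.69 in LSD1-CKO, against 3.38, 3.10 and 3.43 in control libraries. The groups did not overlap, with a difference of 0.36 (two-sided exact permutation p = 0.1, the smallest possible, adjusted 0.2). Ccng2 made up 6.64 ± 0.121% of the cyclin G sum in LSD1-CKO and 8.56 ± 1.04% in control ventricles (SD, n = 3 each). The sum itself, set by Ccng1, was 122 ± 9.95 and 120 ± 9.04 FPKM (SD, n = 3 each).

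**Figure D3:**
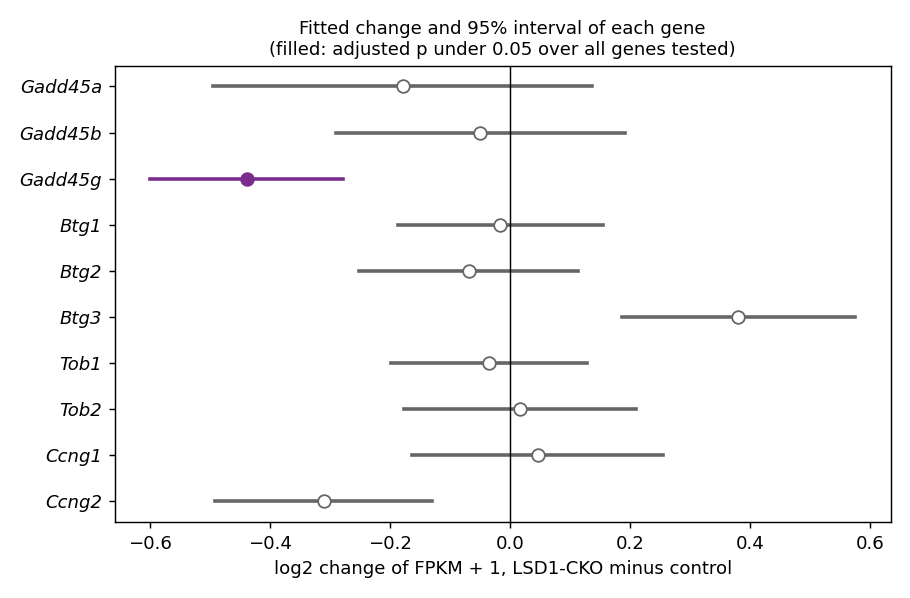
Fitted log2 change of FPKM + 1, LSD1-CKO minus control, with its 95% interval for each of the 10 genes; a filled point marks an adjusted p under 0.05 over all genes tested. Gadd45g is filled at -0.44, the intervals of Btg3 (0.19 to 0.58) and Ccng2 (-0.49 to -0.13) do not reach 0 before adjustment, and the other 7 span 0.

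The 3 genes whose values over the 6 libraries were nearest to those of Gadd45g, by the mean absolute difference of centred log2(FPKM + 1) among 12165 other named genes, were Mccc2 (0.031), Sap30 (0.036) and Meox2 (0.036). Mccc2 stood at 7.9 ± 0.187 FPKM in LSD1-CKO and 10.7 ± 1.09 FPKM in control ventricles, Sap30 at 49.8 ± 1.9 and 66.5 ± 3.53 FPKM, and Meox2 at 1.45 ± 0.0669 and 2.32 ± 0.227 FPKM (SD, n = 3 each). These genes were chosen for their likeness over the same libraries, so their own differences are a description.

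**Figure D4:**
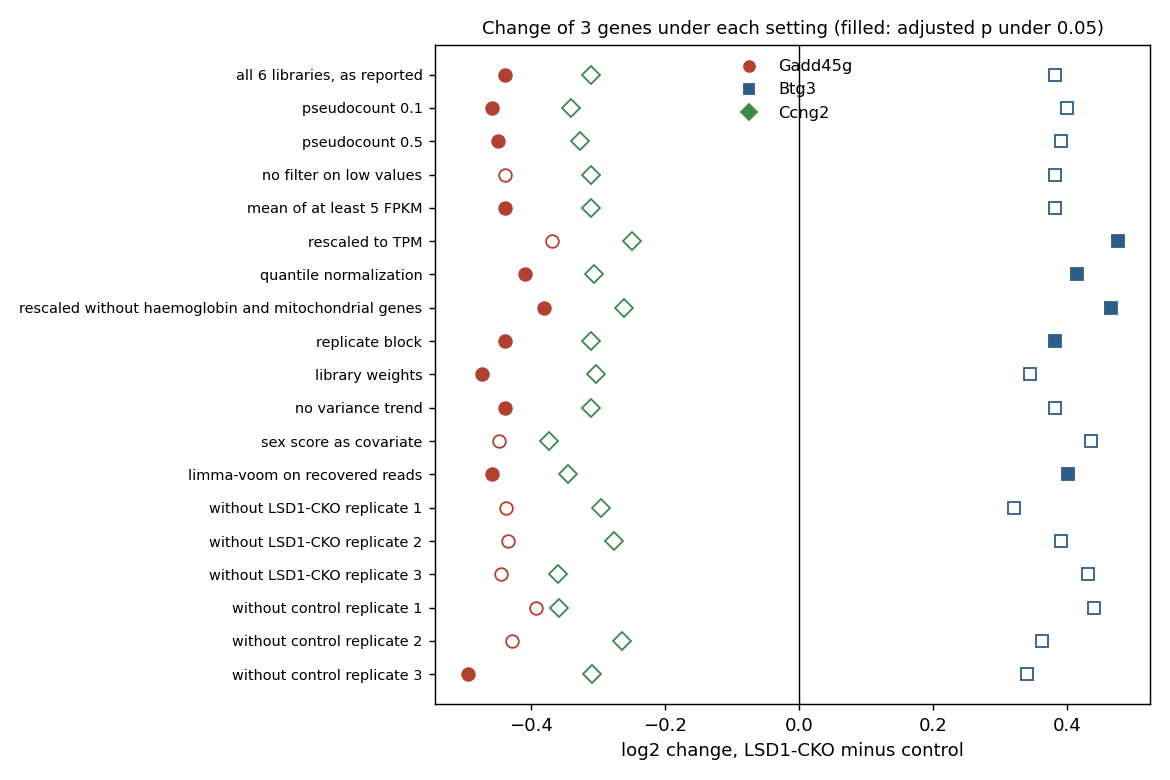
Log2 change of Gadd45g (circles), Btg3 (squares) and Ccng2 (diamonds), LSD1-CKO minus control, with all 6 libraries and under each of 18 other settings listed on the vertical axis; filled marks have an adjusted p under 0.05. Gadd45g stays between -0.50 and -0.37 and Btg3 between 0.32 and 0.48, while the fill changes with the setting; Ccng2 is open throughout.

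No gene was called in the 3 lists of partners of these proteins, beside 2.37% of all genes tested called either way. The members of these lists had fitted changes on both sides of 0. None of 15 CCR4-NOT and poly(A)-binding protein genes was called, with a median log2 change of -0.04, with single genes from -0.32 to 0.05, and Cnot9, a subunit of the deadenylase, stood at 13.7 ± 0.21 FPKM in LSD1-CKO and 15.2 ± 1.1 FPKM in control ventricles (SD, n = 3 each, limma adjusted p = 0.396). Pabpn1, the nuclear poly(A)-binding protein gene, had 5.8 ± 1.47 and 7.42 ± 1.33 FPKM (limma adjusted p = 0.425), with 21.5% of its exon bases under Gm20521. None of 16 GADD45 partners and p38 or JNK pathway kinases was called (median log2 change -0.02). Pcna stood at 139 ± 12.2 FPKM in LSD1-CKO and 159 ± 8.54 FPKM in control ventricles (limma adjusted p = 0.302), and Cdk1 at 45 ± 1.57 and 49.9 ± 3.44 FPKM (0.364). None of 11 cyclin G partners was called (median log2 change -0.03), and the PP2A catalytic subunit gene Ppp2cb stood at 81 ± 5.36 and 91.1 ± 6.05 FPKM (limma adjusted p = 0.349). The other catalytic subunit gene, Ppp2ca, had 49.7 ± 1.38 and 53.7 ± 1.97 FPKM (0.423), with 41.3% of its exon bases under other genes.

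Of 20 genes of p53 and its targets, 2 rose and 0 fell, where 1.91% and 0.466% of all genes tested were called, and the median log2 change was 0.05. Pmaip1, which encodes the death-promoting protein NOXA, stood at 3.99, 4.30 and 3.58 FPKM in LSD1-CKO and at 1.56, 1.74 and 2.02 FPKM in control libraries (log2 change 0.84, SE 0.10, limma adjusted p = 0.00642). Perp, a desmosomal p53 target, stood at 88.3, 86.2 and 86.1 FPKM in LSD1-CKO and at 55.5, 65.0 and 51.8 FPKM in control libraries (log2 change 0.59, SE 0.09, limma adjusted p = 0.0169). The call of Perp was lost without any 1 LSD1-CKO library (adjusted p = 0.0706, 0.0742 and 0.0693 without replicate 1, 2 and 3), without control replicate 1 (0.0708), with no filter on low values (0.0591) and with the sex score as covariate (0.0882). Pmaip1 passed in each of those 6 fits, so that the count of genes that rose was 1 there. After rescaling to TPM and without control replicate 3, Cdkn1a was called higher as well, and the count was 3. The p53-linked Gadd45a, Btg2 and Ccng1, given above, were not among the genes that passed.

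The FOXO list had 0 of 15 tested genes called (median log2 change -0.06), where 2.37% of all genes tested were called either way. Foxo1 itself stood at 4.64 ± 0.675 FPKM in LSD1-CKO and 3.5 ± 0.249 FPKM in control ventricles (SD, n = 3 each, limma adjusted p = 0.172), and Klf15, a cardiac Krüppel-like factor, at 2.01 ± 0.19 and 2.83 ± 0.251 FPKM (0.111). None of 20 immediate early and dissociation stress genes was called (median -0.01). Ccn2 had 18.6 ± 1.56 and 15.4 ± 1.45 FPKM (limma adjusted p = 0.213), with 23.2% of its exon bases under Gm15270, and Socs3 had 3.16 ± 0.191 and 2.5 ± 0.463 FPKM (0.309). The integrated stress response list had 0 of 11 called and a median of -0.16, with only 4 of the 11 fitted above 0. In that list the serine synthesis gene Phgdh stood at 62 ± 8.64 and 42.8 ± 4.37 FPKM (limma adjusted p = 0.0728) and Cebpb at 18.9 ± 1.09 and 13.8 ± 2.38 FPKM (0.114), with 20.7% of its exon bases under Tmem189. Both passed, higher in LSD1-CKO, after rescaling to TPM and without haemoglobin and mitochondrial genes. Phgdh also passed by quantiles and with limma-voom, and Cebpb without control replicate 1.

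Calls in the cell cycle lists and the LSD1 list stand beside 1.91% higher and 0.466% lower over all genes tested. None of 23 proliferation genes passed (median log2 change -0.06). Ccnd2, a D-type cyclin gene, stood at 53.1 ± 3.63 FPKM in LSD1-CKO and 43 ± 1.94 FPKM in control ventricles (SD, n = 3 each, limma adjusted p = 0.0945), and Ccnd1 at 31.2 ± 1.02 and 27.6 ± 1.53 FPKM (0.264), with 23.4% of its exon bases under LTO1. Ccnd2 passed, higher in LSD1-CKO, after rescaling without haemoglobin and mitochondrial genes. Both cyclin genes were fitted above 0, but only 7 of the 23 proliferation genes were. Of 11 tested cell cycle inhibitors 1 rose, the neuronal exit gene Cend1 named in the study's title (29.7 ± 2.5 and 9.18 ± 1.63 FPKM, limma adjusted p = 0.00159), which the study may have chosen on these samples. With Cdkn1a the count was 2 after rescaling to TPM and without control replicate 3. Of 15 tested LSD1 and CoREST complex genes 1 fell, Kdm1a (log2 change -1.22, SE 0.11, limma adjusted p = 0.00274).

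**Figure D5:**
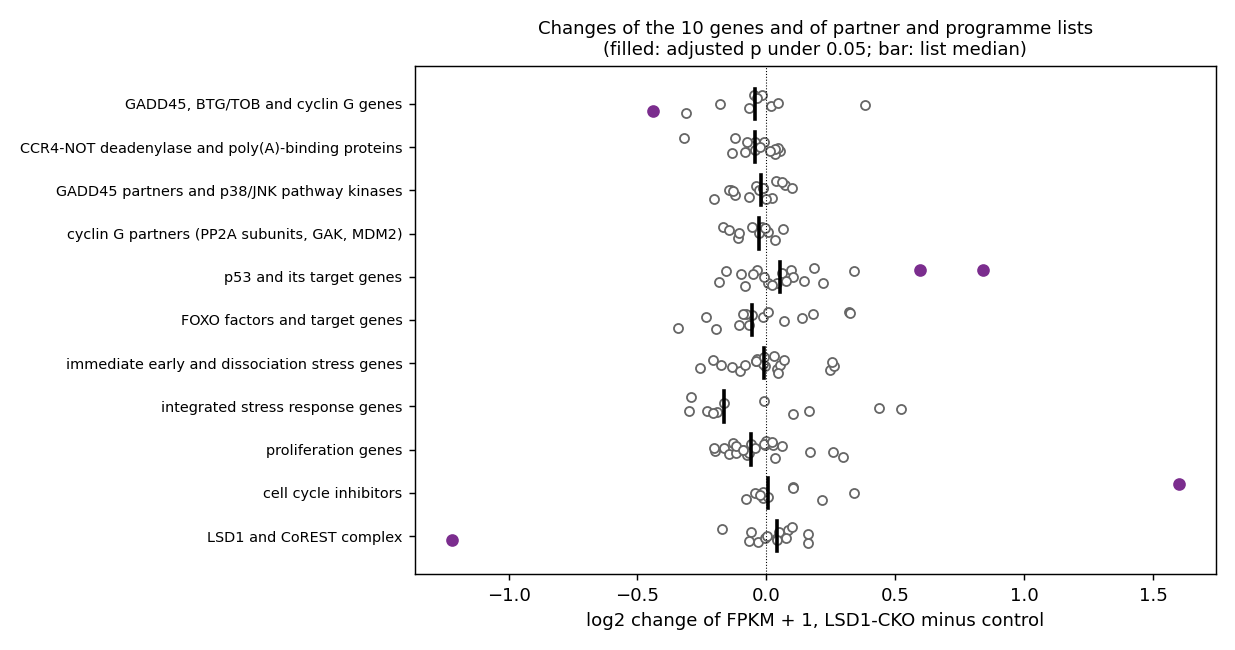
Log2 change of FPKM + 1, LSD1-CKO minus control, of each tested gene (points, spread vertically for sight) in the 10 genes of the report and in 10 lists of partners and programmes, with the list median as a bar; filled points have an adjusted p under 0.05. The medians lie between -0.16 and 0.05, and the filled points are Gadd45g, Pmaip1, Perp, Cend1 and Kdm1a.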

How the data were processed

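Total RNA from heart ventricles was extracted with TRIzol and made into libraries with a NEBNext Ultra RNA kit, per the labels' protocols. The build mm10 and the tools HISAT2 2.0.5, featureCounts 1.5.0-p3, fastp and CASAVA are listed in the submitters' processing notes, with no role, option or annotation given. Values were deposited by the authors as FPKM for 54532 Ensembl gene IDs in 6 libraries, with no counts. GENCODE M21 (GRCm38, the assembly of mm10) named 54495 of them; of IDs sharing a symbol the highest kept it.

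Multiplied by exon length, FPKM fell on regular steps, so that reads could be recovered: of genes below 30 reads, 98.1% to 98.5% came within 0.02 of an integer. Genes averaging 0.5 FPKM or more (14149) were fitted with limma 3.58.1 in R 4.3.3 on log2(FPKM + 1), with a variance trend and genotype as the only term, two-sided, with Benjamini-Hochberg adjustment over all of them. The fit was tested on simulated data, where it called 17.6% of 1.3-fold, 69.2% of 1.5-fold and 95.2% of 2-fold changes. A missed threshold at a change near 1.3-fold therefore does not show that there was none. Ratios were compared by exact permutation. The genes, lists and alternatives were chosen with earlier results of these data known. Named beside the 10 genes were Kdm1a, up to 4 called genes of each list (or the 2 with the smallest p), and the 3 genes nearest to each called member. No libraries agreed within sampling noise (median chi-square per gene at least 1.82, against 0.455 for noise), so each counted as 1 replicate. Promoter sequences are RefSeq's. Sequence copies were searched in GENCODE transcripts, and tables were made with Python 3.11.15 and pandas 2.3.3.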

Additional observations from a re-analysis of the deposited data

How the results depend on the processing

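Gadd45g, Btg3, Ccng2 and Gadd45a kept their direction in every setting run. The count of the 10 genes called lower, 1 as reported, was 0 with no filter on low values, after rescaling to TPM and with the sex score as covariate, and 0 to 1 when a library was left out. The count called higher, 0 as reported, was 1 (Btg3) after rescaling to TPM, by quantiles, without haemoglobin and mitochondrial genes and with limma-voom on recovered reads, and 0 when a library was left out. Distinct genes called higher over the lists, 3 as reported, were 6 after rescaling to TPM and 6 without haemoglobin and mitochondrial genes, and 2 to 4 without a library; those called lower, 1 as reported, were 1 to 2 without a library (Asns was added without control replicate 3). The sum of the BTG/TOB genes, 1.05 of control as reported, was 1.11 after rescaling to TPM. The causes were not tested.

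Genes with changes near 0 turned sign. After rescaling to TPM, Gadd45b was at 0.032, Btg1 at 0.066, Btg2 at 0.011 and Tob1 at 0.046 on the log2 scale; without haemoglobin and mitochondrial genes, Gadd45b was at 0.021, Btg1 at 0.056 and Tob1 at 0.035. By quantiles Btg1 was at 0.019 and Tob2 at -0.023, and with the sex score Gadd45b was at 0.026 and Ccng1 at -0.036. Leaving out a library gave ranges of -0.15 to 0.017 for Gadd45b, -0.072 to 0.033 for Btg1, -0.076 to 0.0059 for Tob1, -0.014 to 0.074 for Tob2, -0.017 to 0.11 for Ccng1 and -0.055 to 0.31 for the ratio of Gadd45b over Gadd45a.

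Over all genes, 270 higher and 66 lower calls became 110 and 12 with no filter, 93 and 23 with the sex score, 409 and 102 with limma-voom, and 111 to 273 and 23 to 108 without a library. Of the lower calls, 40 were left after rescaling to TPM and 112 were made with library weights, and 132 higher calls were made at a mean of at least 5 FPKM. Same-numbered libraries deviated together by correlations of -0.0021, 0.14 and 0.164, so the numbers were not taken as pairs; with the replicate block, which also called Phgdh higher, 1 of the 10 genes was called lower and 1 higher, Btg3 (adjusted p = 0.0395). Gadd45a, at 49 to 85 reads, is limited by depth.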
